A study of Drosophila melanogaster with 2 samples.

Results

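The translation factor genes are the genes for the proteins that start, lengthen and end the polypeptide chain on the cytosolic ribosome. They were taken as the protein-coding genes whose symbol begins eIF, eEF or eRF in Ensembl release 115, and there were 54 of them among 13968 protein-coding genes. Their promoters were examined in a chromatin immunoprecipitation sequencing (ChIP-seq) study of CG11723, a Drosophila melanogaster protein carried in a transgenic line as a fusion with green fluorescent protein (GFP) at its C-terminus and recovered with an antibody against GFP. The chromatin came from whole embryos of both sexes, pooled, aged 0 to 16 hours, and the values therefore average over all cell types and stages of that interval. There was 1 group of 2 biological replicates, numbered 1 and 3, so no comparison between groups could be made. Both replicates carried the transgene, and no input or untagged sample was analysed here.

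Initiation factors bring the initiator tRNA and the small ribosomal subunit to the capped end of an mRNA and then to the start codon. Elongation factors deliver aminoacyl-tRNAs and move the ribosome along, and release factors free the chain at a stop codon. Most of these proteins are needed in every growing cell, and in the early fly embryo, which lives on maternal mRNA, translation is also regulated on single mRNAs through the cap-binding step.

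Regions recovered with the tagged protein were read from 4 deposited lists, which give for each region a summit, the position of highest signal, and a signal value whose scale is not stated. The values were used only to rank regions within a list. A list from both replicates pooled and a list from each replicate held 30000 regions each, called before any threshold. The list selected by the irreproducible discovery rate (IDR), called the IDR list here, held 3869 regions, which were ranks 1 to 3869 of the pooled list. Of the 54 genes, 18 (33.3%) had an IDR summit no farther than 500 bp from a transcription start site (TSS) of the annotation, against 15.0% of all protein-coding genes. The sequences at 8 of those summits are shown, first the 4 of highest signal outside the chromosome arm whose sequence is not printed here, and then 4 that hold a DRE or a TCT initiator. The DRE, TATCGATA, is the element bound by the fly factor DREF, and the TCT initiator is a start site element known from fly ribosomal protein genes. They are read 5′ to 3′ on the strand of the gene from the RefSeq Release 6 genome (dm6). Capitals mark matches to the motifs described further on, and a run without capitals holds none of them.
eIF4EHP: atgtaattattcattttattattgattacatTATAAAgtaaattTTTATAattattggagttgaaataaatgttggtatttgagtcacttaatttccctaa
eEF1gamma: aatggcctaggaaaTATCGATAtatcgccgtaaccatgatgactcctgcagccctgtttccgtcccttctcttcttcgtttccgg
eIF3h: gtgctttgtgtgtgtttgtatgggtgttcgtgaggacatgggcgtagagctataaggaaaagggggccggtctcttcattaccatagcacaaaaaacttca
eIF4B: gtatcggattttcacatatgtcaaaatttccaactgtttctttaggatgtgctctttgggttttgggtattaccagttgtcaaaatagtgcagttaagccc
eIF3a: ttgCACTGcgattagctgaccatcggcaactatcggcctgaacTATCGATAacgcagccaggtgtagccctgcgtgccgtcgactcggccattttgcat
eRF1: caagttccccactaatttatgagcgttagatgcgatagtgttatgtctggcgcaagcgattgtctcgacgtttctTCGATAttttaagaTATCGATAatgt
eEF2: gcagcgcctcgcTCTTTCctgtcgaaacgc
eIF2A: ctatcgctTATCGATAcaccgcgtacacgg

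The windows lie at chr3R:24109141-24109241 (minus strand) for eIF4EHP, chr3R:29220117-29220201 (plus) for eEF1gamma, chr2L:5052453-5052553 (minus) for eIF3h and chr3L:27858299-27858399 (minus) for eIF4B. Those of eIF3a, eRF1, eEF2 and eIF2A lie at chr3R:4433878-4433976 (minus), chr3L:20348241-20348341 (plus), chr2L:21682096-21682125 (minus) and chr3L:21824868-21824897 (plus). Each window was taken as the summit base and 50 bp on each side, and 4 of the 8 were shortened so that no more than 30 bases of annotated UTR are shown. The summit is base 51 except in eEF2, where it is base 2, and in eIF2A, where it lies beyond the stretch shown. The capitals in eIF4EHP are a TATA box on each strand (TATAAA and TTTATA), and those in eEF1gamma, eIF3a, eRF1 and eIF2A include a whole DRE. The DRE of eIF3a begins 7 bases before its summit base, its other capitals are CACTG, the motif CAGTG on the opposite strand, and eRF1 holds a separate DRE core at base 76. In eEF2 the letters TCTTTC begin at base 13, next to a start site at base 10. The eIF3h and eIF4B windows hold no match.

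Regions were recovered at translation factor promoters more often than at protein-coding promoters in general, in every list. Any region of the pooled list lay at 27 members (50%), against 37.1% of protein-coding genes. Of the genes with a pooled region, 66.7% of members (18 of 27) had an IDR region, against 40.3% of protein-coding genes. The 3869 regions of highest signal of replicate 1 reached 19 members (35.2%), against 14.3% of protein-coding genes, and those of replicate 3 reached 16 (29.6%), against 17.5%. With every region of the replicate lists, 33 members (61.1%, against 39.7%) had a region in replicate 1 and 31 (57.4%, against 40.7%) in replicate 3. A further count required an IDR region that overlapped one of the 3869 strongest regions of both replicates by at least 1 bp, wherever the summits lay. It was met by 12 members (22.2%), against 9.06% of protein-coding genes. By the overlapping summit nearest to the pooled one, a choice made after seeing the data, 11 met it, without eIF1, against 8.79%. The 12 were eEF1alpha1, eEF1delta, eEF1gamma, eEF2, eEF5, eIF1, eIF3h, eIF4B, eIF4EHP, eIF4G1, eIF6 and eRF3. The members' share was above that of all protein-coding genes in both replicates, and by less in replicate 3. The genes are not replicates of a condition, and no test was made across them.

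**Figure D1:**
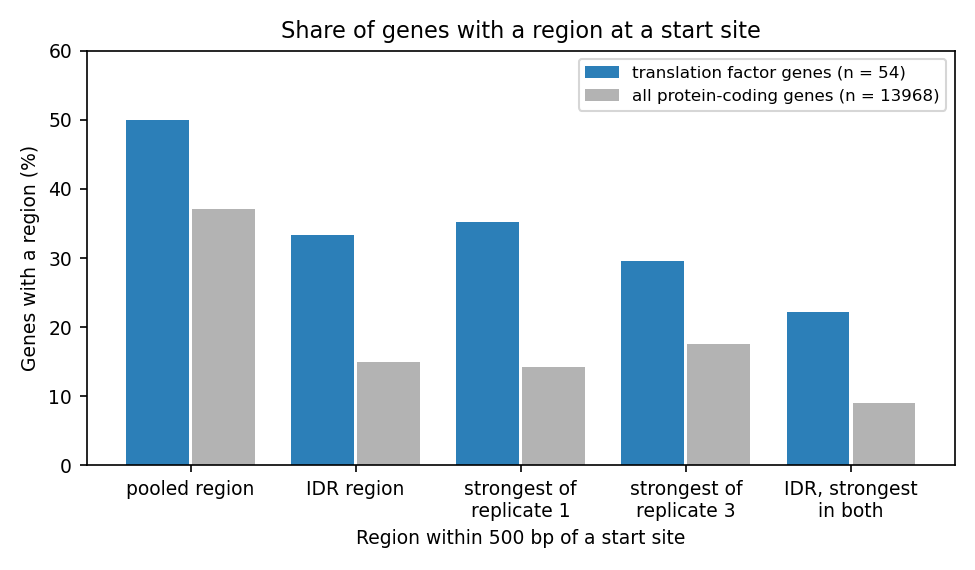
Share of genes, in percent, with a region whose summit lies within 500 bp of a start site, for the 54 translation factor genes (blue) and all 13968 protein-coding genes (grey), under 5 ways of choosing regions. The blue bar is the taller in each pair, with 33.3% against 15.0% for the IDR list.

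By role, the share of genes with an IDR region was highest for elongation, subunit joining and termination, and is read here against 15.0% of all protein-coding genes. An IDR region lay at 5 of 8 elongation genes (62.5%), 2 of 2 subunit joining genes and 2 of 2 termination genes. It lay at 4 of 13 genes of the eIF4 group and its cap-binding relatives (30.8%), 2 of 6 start codon selection genes (33.3%) and 1 of 2 genes for other initiator tRNA delivery. The 2 of 16 eIF3 genes (12.5%) were near the share of all genes, and 0 of 5 eIF2B genes is too few to tell from it. Replicate 1 and replicate 3 each had one of their strongest regions at 5 of 8 elongation genes, against 14.3% and 17.5% of protein-coding genes. For the eIF4 group of 13 the count was 6 in replicate 1 and 3 in replicate 3, and for eIF2B it was 0 in both. Subunit joining and termination each had 1 of 2 genes in replicate 1 and 2 of 2 in replicate 3. The roles hold 2 to 16 genes each, and differences between them were not tested.

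**Figure D2:**
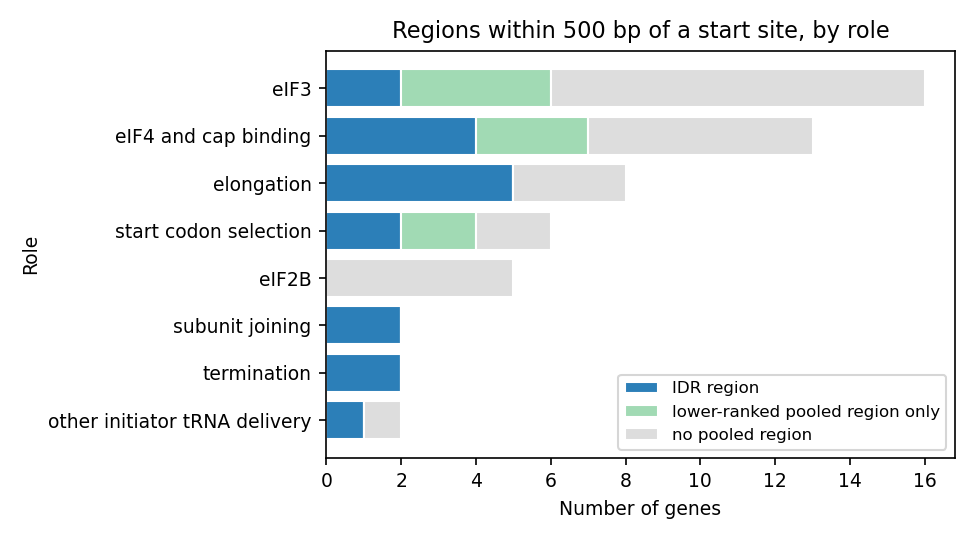
Number of translation factor genes in each role with an IDR region (blue), with a lower-ranked pooled region only (green) or with no pooled region (grey) within 500 bp of a start site. Elongation shows 5 blue of 8, eIF3 shows 2 of 16 and eIF2B shows 0 of 5.

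Among the elongation genes, eEF5 carried the highest signal. Its product, the hypusine-bearing factor also known as eIF5A, helps ribosomes past stalled peptide bonds. A single block at chr2R:24056935-24057983 held 2 IDR summits, with a pooled signal of 499 (rank 181) at 40 bp upstream of the TSS and 309 (rank 510) at 327 bp upstream. The latter summit also lay 334 bp upstream of a TSS of ppk29. Next to the stronger summit, replicate 1 had a summit with a signal of 296 (rank 149) at 8 bp and replicate 3 had one with 193 (rank 292) at 5 bp. Replicate 1 also had a summit with 255 (rank 218) exactly on the weaker one, and its highest in the block was 341 (rank 94), 540 bp from the stronger pooled summit. Both replicates thus placed the promoter summit of eEF5 among their first 500 regions.

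eEF1gamma encodes a subunit of the exchange complex that recharges eEF1alpha with GTP. Its region, chr3R:29219963-29220323, had a pooled signal of 481 (rank 195) with the summit 5 bp upstream of the TSS. The replicate signals were 312 (rank 130) in replicate 1 and 151 (rank 481) in replicate 3. eEF1delta, another subunit of that complex, had a region at chr2L:10232296-10232417 with a pooled signal of 153 (rank 1760) at 140 bp upstream, 81.3 (rank 2157) in replicate 1 and 70.7 (rank 1848) in replicate 3. Of the 3 genes for this complex, eEF1beta had no pooled region and only low-ranked regions in replicate 3 (ranks 8969 and 10966).

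eEF1alpha1 encodes the GTPase that brings aminoacyl-tRNA to the ribosome. Its stronger region, chr2R:11891915-11892194, lay in an intron of the gene 42 bp upstream of its nearest TSS, with a pooled signal of 227 (rank 894), 116 (rank 1144) in replicate 1 and 123 (rank 715) in replicate 3. A weaker IDR region at chr2R:11890796-11891235 had a signal of 97.1 (rank 3416) and also lay 37 bp upstream of ERp60. The other eEF1alpha gene, eEF1alpha2, had no pooled region and only rank 28077 in replicate 1. eEF2, the translocation GTPase, had a region at chr2L:21682007-21682264 with a pooled signal of 208 (rank 1070), 136 (rank 852) in replicate 1 and 71.5 (rank 1819) in replicate 3. The selenocysteine-specific eEFSec had no region in any list.

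Both genes that act around subunit joining had IDR regions. eIF6, which keeps free large subunits from joining small ones, had the highest signal of all members. Its region, chr2R:23850227-23850569, had a pooled signal of 727 (rank 44), with 287 (rank 161) in replicate 1 and 440 (rank 23) in replicate 3. The summit lay 99 bp upstream of the eIF6 TSS, in an exon of the antisense gene asRNA:CR45928 and an intron of ytr, and the asRNA:CR45928 TSS was nearer. eIF5B, the GTPase that promotes joining, had a region at chr3L:3460660-3460841 with a pooled signal of 200.97 (rank 1135) and 99.2 (rank 1054) in replicate 3. No region of replicate 1 overlapped it.

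In the eIF4 group, eIF4EHP stood far above the others. This cap-binding protein does not engage eIF4G and represses maternal mRNAs in the fly embryo. Its region, chr3R:24108947-24109411, had a pooled signal of 680 (rank 61), 374 (rank 68) in replicate 1 and 306 (rank 79) in replicate 3. The summit lay 231 bp upstream of eIF4EHP and 145 bp upstream of CG18428, so the latter start was the nearer. The ranks in the 3 lists were within 18 places of one another, and both replicates held the region among their first 100.

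The helicase cofactor eIF4B had a region at chr3L:27858195-27858517 with a pooled signal of 228 (rank 885), 111 (rank 1238) in replicate 1 and 117 (rank 786) in replicate 3. It lay 78 bp upstream of the TSS in an intron of lncRNA:CR46482. The scaffold eIF4G1 had a region at chr4:930655-930867 with a pooled signal of 168 (rank 1538), also 78 bp upstream. The overlapping regions had 102 (rank 1448) in replicate 1, 1 bp from the pooled summit, and 79.8 (rank 1530) in replicate 3. The replicate 3 summit lay 181 bp from the pooled one, at position -259 from the TSS. That was nearer to another pooled region outside the IDR list (rank 4238, position -281). The helicase eIF4A had a region at chr2L:5982324-5982763 with a pooled signal of 134 (rank 2147). For eIF4A the replicates differed, with 97.4 (rank 1577) in replicate 1 and 18.4 (rank 11092) in replicate 3. The eIF4G relative eIF4G2 (rank 6236) and eIF4H1 (rank 4070) had pooled regions outside the IDR list, and replicate 1 ranked theirs at 2782 and 2347. The cap-binding gene eIF4E1 had a pooled region of rank 13375 and a best rank of 6414 in replicate 1, and eIF4E3, eIF4E4, eIF4E5, eIF4E6, eIF4E7 and eIF4H2 had no region in any list.

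The eIF3 complex, which binds the small subunit and bridges it to eIF4G, had regions about as often as protein-coding genes in general. Of its 16 genes, 2 (12.5%) had an IDR region, against 15.0%, and 6 (37.5%) any pooled region, against 37.1%. eIF3h had 2 IDR regions. The stronger, chr2L:5052353-5052576, lay in an intron 277 bp downstream of the TSS, with a pooled signal of 248 (rank 754), 114 (rank 1186) in replicate 1 and 130 (rank 660) in replicate 3. The other, chr2L:5052709-5052887, lay 5 bp downstream, with a pooled signal of 150 (rank 1826), and both lay within 500 bp of senju. eIF3a, the scaffold subunit, had a narrow region at chr3R:4433868-4433977 with a pooled signal of 162 (rank 1617) and 108 (rank 1318) in replicate 1, and no region of replicate 3 overlapped it. Its summit was 31 bp upstream of eIF3a and 39 bp upstream of the divergent gene CG1074.

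A pooled region outside the IDR list lay at eIF3m (rank 6263), eIF3f1 (rank 8251), eIF3f2 (rank 11711) and eIF3l (rank 20004). eIF3c stood apart, because replicate 3 held a region 56 bp upstream of its TSS with a signal of 121 (rank 726), the best in replicate 1 had 36.0 (rank 8047), and the pooled list held none at a TSS. eIF3b, eIF3j and eIF3k had a region in 1 replicate list only, with ranks of 7310 to 16009. eIF3d1, eIF3d2, eIF3e, eIF3g1, eIF3g2 and eIF3i had none in any list.

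Of the genes for start codon selection, eIF1 and eIF2beta had an IDR region. eIF1, which guards the choice of start codon, had a region at chr3L:3222987-3223426 with a pooled signal of 122 (rank 2454) at 134 bp upstream. At that summit replicate 1 had a signal of 15.3 (rank 24484), 1 bp away, and replicate 3 had 101.08 (rank 1017), 26 bp away. Higher summits overlapped the same region 207 and 174 bp from the pooled summit, at 181 (rank 484) in replicate 1 and 218 (rank 211) in replicate 3. These lay nearer to the start of the ribosomal protein gene RpL28, which is 247 bp from the pooled summit, than to that of eIF1. eIF2beta, a subunit of the GTPase that carries the initiator tRNA, had a region at chr3L:12526955-12527064 with a pooled signal of 105 (rank 3037). That region had a signal of 89.5 (rank 1810) in replicate 1 and 12.3 (rank 22805) in replicate 3.

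Of the other eIF2 subunit genes, eIF2alpha had regions in the replicate lists only (ranks 12060 and 9401) and eIF2gamma had none, while eIF1A (rank 16823) and eIF5 (rank 8891) had pooled regions outside the IDR list. In the replicate lists eIF1A had rank 4140 in replicate 1 and 8065 in replicate 3, and eIF5 had rank 7282 in replicate 1. eIF2A, a factor linked to initiator tRNA delivery outside the eIF2 route, had a region at chr3L:21824698-21825137 with a pooled signal of 96.8 (rank 3433), 61.2 (rank 3521) in replicate 1 and 23.7 (rank 7483) in replicate 3. eIF2D, a factor also able to deliver tRNA to the ribosome, had a strongest region of replicate 1 (rank 3210) and a region of rank 4494 in replicate 3, but none in the pooled list. Of the eIF2B genes, which encode the exchange factor of eIF2, 4 had regions in a single replicate list (best ranks 3892 to 17664) and eIF2Balpha had none.

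Both release factor genes had regions. eRF3, the release GTPase, had a region at chr2L:12434287-12434483 with a pooled signal of 144 (rank 1934), 58.1 (rank 3826) in replicate 1 and 97.5 (rank 1085) in replicate 3. Its summit was 38 bp upstream, in an intron of the neighbouring splicing factor gene SC35. eRF1, which reads the stop codon, had a region at chr3L:20348071-20348510 with a pooled signal of 113 (rank 2735). The pooled summit lay 64 bp upstream of eRF1 and 349 bp upstream of Rbbp5. Replicate 3 had a summit 3 bp from it, with 56.4 (rank 2511). The overlapping region of replicate 1 had 44.3 (rank 5898), with its summit 280 bp from the pooled one and 216 bp downstream of the TSS. Both genes ranked higher in replicate 3.

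**Figure D3:**
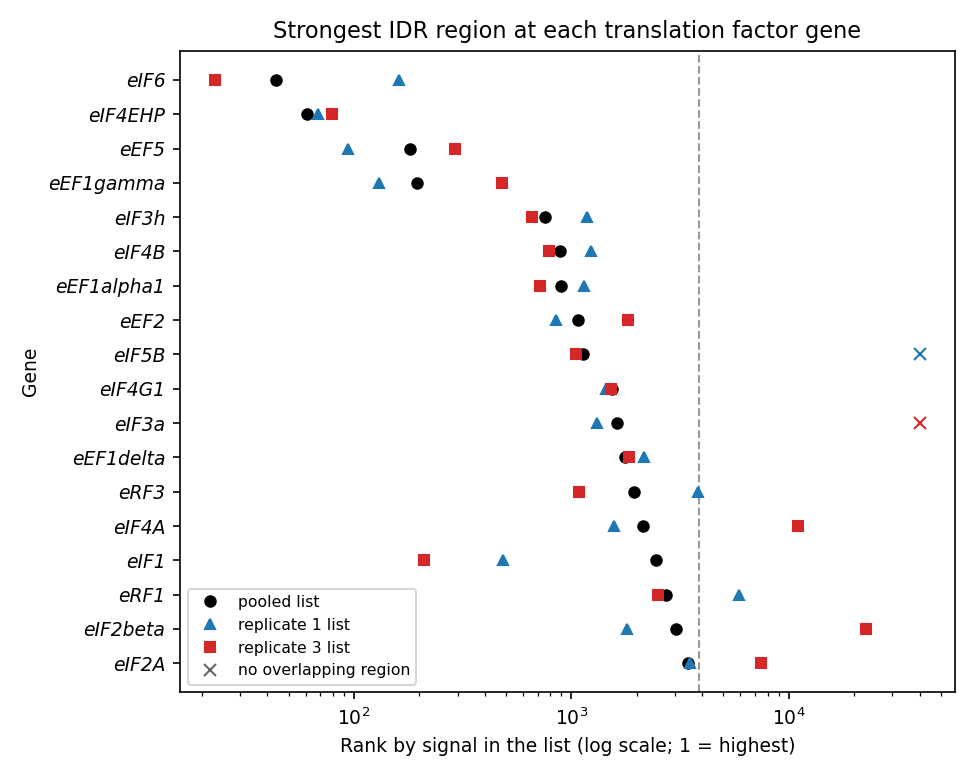
Rank by signal (log scale) of the strongest IDR region at each of the 18 translation factor genes in the pooled list (black circles), replicate 1 (blue triangles) and replicate 3 (red squares), taking the highest overlapping region, with crosses at the right for no overlapping region. The dashed line is rank 3869, and the markers lie close together for eIF4EHP (61, 68 and 79) and far apart for eIF2beta (3037, 1810 and 22805).

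Over the 18 members with an IDR region, the strongest region had a median signal of 184 (96.8 to 727), against 167 over the 2092 protein-coding genes with an IDR region. The median rank was 1336.5 against 1541.5, and 4 members (22.2%) against 20.3% of the genes had a region among the first 500. The members' regions thus lay through the whole range of the list. In replicate 1 the overlapping regions, taking the highest where several overlapped, had a median rank of 1238 (68 to 5898) over 17 members, and 16 were within the first 3869. In replicate 3 the median rank was 1054 (23 to 22805) over 17 members, and 14 were within the first 3869. Taking the nearest summit instead changed the region for eEF5 and eIF1, and the median rank in replicate 1 was then 1318 (68 to 24484), with 15 within the first 3869. Of the 18, 9 ranked better in replicate 1.

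The summits at translation factor genes lay closer to the nearest annotated start site than those at all protein-coding genes with an IDR region. The median position was 57 bp upstream of the gene's nearest TSS (a position of -57, from -274 to 277) over 18 members, against 133 bp upstream (-133) over 2092 genes. Within 150 bp of the TSS lay 15 of 18 members (83.3%), against 51.8% of the genes, and 17 of 18 (94.4%) lay upstream, against 85.7%. Many members have several annotated starts, and upstream of the nearest one is not always outside the gene. A gene with more starts is more likely to have one near a summit, and numbers of starts were not compared with the 2092 genes. For eEF2, eIF5B, eIF4A and eIF2A the summit lay in an exon with 5′ UTR of a longer transcript of the same gene. For eEF1alpha1 and eIF3h it lay in an intron, and for 12 it lay outside the member gene, of which 9 were outside every annotated gene.

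At the edge of the 500 bp window, the members whose nearest IDR summit lay closest to the limit were eIF2beta at 274 bp and eIF4EHP at 231 bp. The nearest member outside was eIF2Bbeta, 691 bp from the region of rank 2 of the IDR list (signal 1568). Next came eIF3d1 at 1324 bp and eIF3g1 at 1375 bp from regions of rank 413 and 1684. Near the end of the IDR list, eIF2A was inside at rank 3433 and eIF4H1 was outside at rank 4070, with pooled signals of 96.8 and 85.3.

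**Figure D4:**
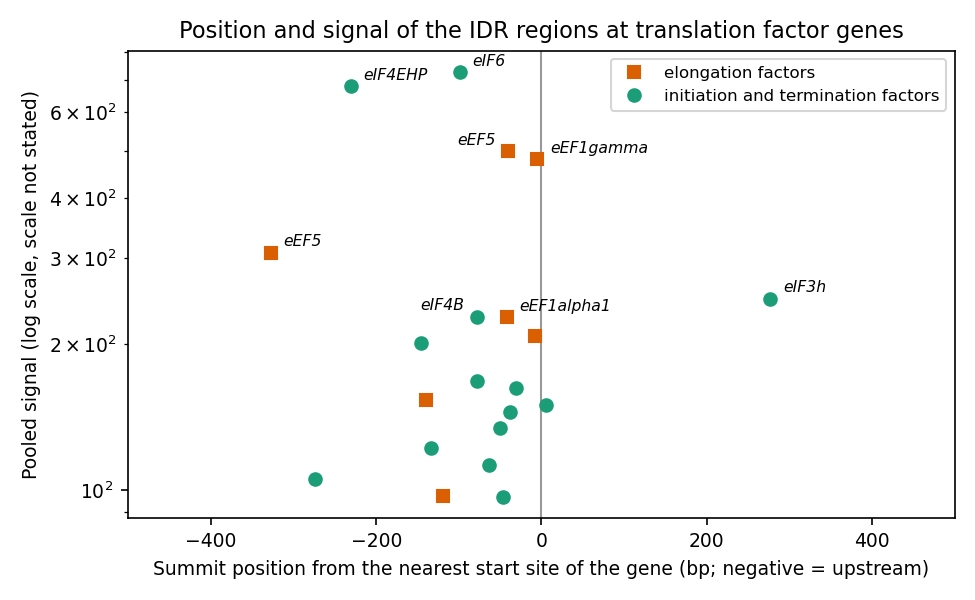
Position of the 21 IDR summits at translation factor genes from the nearest start site of the gene (bp, negative upstream) and their pooled signal (log scale, scale not stated), with elongation genes as orange squares. Names are given for the summits of highest signal, and 15 of the 18 strongest summits lie within 150 bp of the start.

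In all, 7 of the 18 strongest regions (38.9%) also lay at a TSS of another gene, against 53.6% of the 2092 genes, so 7 regions cannot be assigned to the translation factor alone. These were the regions of eIF6, eIF4EHP, eIF3h, eIF3a, eRF3, eIF1 and eRF1. The member's own TSS was the nearest for 16 of 18 (88.9%), against 74.3%, the exceptions being eIF4EHP and eIF6. By chromosome arm, an IDR region lay at 5 of 6 members on 2L (15.8% of the arm's protein-coding genes), 6 of 12 on 3L (15.8%), 3 of 13 on 2R (13.1%) and 3 of 15 on 3R (15.1%). On X it lay at 0 of 7 members, too few to tell from the 13.5% of protein-coding genes there, and on chromosome 4 at 1 of 1, against 65%.

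The summits with 50 bp on each side were searched on both strands for 6 motifs. A whole DRE was found at 4 of 18 members (22.2%), against 3.92% of the 2092 genes and 1.76% of the 3869 IDR regions, and these were eEF1gamma, eIF3a, eRF1 and eIF2A. The DRE core TCGATA, which the whole DRE contains, was found at 6 members (33.3%), against 10.4% and 6.41%, with eEF2 and eRF3 added. The TATA box TATAAA was found at 3 members (16.7% against 21.5% of the genes), which were eIF6, eIF4EHP and eIF1. GAGAG was found at 1 (5.56% against 10.04%), CAGTG at 4 (22.2% against 20.5%) and the Motif 1 core GGTCACAC at 2 (11.1% against 1.48%). Thus 2 of the 3 TATA matches were at the highest-ranked members, and the DRE matches were spread from rank 195 to rank 3433.

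The DRE was also more frequent in members without an IDR region. In the promoters, 250 bp before to 50 bp after any TSS, it was found in 16 of 54 members (29.6%), against 10.2% of protein-coding genes. It was in 8 of 18 members with an IDR region (44.4%), against 14.1% of the genes with one, and in 8 of 36 without (22.2%), against 9.47%. A gene with more annotated starts had more sequence searched, also for the TCT initiator, and numbers of starts were not compared. The TCT initiator, spelled CTTT with a C or a T on either side, on the gene strand with its first inner C within 5 bp of a TSS, was found at 6 of 54 members (11.1%), against 2.13% of protein-coding genes. Of these, eEF2, eEF5 and eIF4A had an IDR region, and eIF3f1, eIF3i and eIF3m did not. The median GC content of these windows was 45.05% over the 18 members (18.8% at eIF4EHP to 59.4% at eIF4A), against 34.7% over the 2092 genes. A match is a description of the letters, and factor binding to it was not measured.

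Other genes of translation were counted in 7 lists. Regulators that act through the cap or the poly(A) tail had IDR regions at 8 of 12 genes (66.7%), against 15.0% of all protein-coding genes. They were led by larp (signal 671, rank 67), whose mammalian relative binds mRNAs of the translation machinery, by me31B (557, rank 137), a helicase that represses stored mRNA, and by 4E-T (367, rank 358), an eIF4E-binding protein. The others were tral, orb, Thor, pAbp and Fmr1. Among the strongest regions of the replicates the count was 8 in replicate 1 and 10 in replicate 3. larp thus ranked close to eIF4EHP (rank 61).

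The list of enzymes that modify elongation factors held nero, CG8005 and the genes with symbols of Dph and a digit. The latter belong to the diphthamide pathway of eEF2 and make up most of the list. IDR regions lay at 3 of 7 genes (42.9%), namely Dph4 (signal 416, shared with RpL13A and Spec2), Dph1 (231) and Dph2 (96.7). Ribosome recycling and rescue had 2 of 5 (40.0%), pelo (153) and HBS1 (124), which act together on stalled ribosomes. No region of replicate 1 overlapped that of HBS1. Cytoplasmic aminoacyl-tRNA synthetases, which charge tRNAs, had 7 of 18 (38.9%), led by IleRS (213), GluProRS (205) and ThrRS (176). Of those 7 regions, 6 also lay at a TSS of another gene, all but that of AlaRS, and no region of replicate 1 overlapped that of GluProRS. Mitochondrial synthetases had 1 of 15 (6.67%), ArgRS-m (108), and mitochondrial translation factors had 0 of 9. The signalling genes that control the factors had 1 of 11 (9.09%), Rheb (94.5), the GTPase upstream of the TOR kinase. The regions of HBS1, Rheb, ArgRS-m, tral and orb also lay at a TSS of another gene. In the IDR list, the signalling list and the mitochondrial lists were thus below 15.0%, and the other lists were above it. Among the strongest regions, signalling had 2 of 11 in replicate 1, against 14.3% of protein-coding genes, and 3 of 11 in replicate 3, against 17.5%. It was thus not below the share of all genes in either replicate. Mitochondrial synthetases had 1 of 15 in each replicate, and mitochondrial translation factors had 0 of 9. The lists hold 5 to 18 genes each and were chosen with earlier results of these data known. No conclusion is drawn from the contrast between them, and no test was made.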

How the data were processed

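The authors deposited region lists in narrowPeak format, and the signal value of each region served, as deposited, for order and description inside 1 list only. Calling was done per replicate and on pooled data, with a control and before thresholding, and the IDR list came from those lists, per the submitters' file notes. For the aligner, the caller, the IDR threshold and the read depth, the entry is not given in the sources used here, so the precision behind a signal value is unknown. The deposited summit offset, added to the start of a region, gave its summit.

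The annotation was Ensembl release 115 (BDGP6.54, 18277 genes without transposable elements) and sequence from RefSeq Release 6 (dm6). A region belonged to every gene with a TSS within 500 bp of its summit. Regions of different lists were matched by 1 bp of overlap, taking the one of highest signal or, as an alternative added after seeing the data, the one with the nearest summit. Counts and medians were set beside the same values over all protein-coding genes, with no test. Named were all members with a region, the 3 of highest signal in each other list, and genes sharing a member region. The members and lists were chosen with earlier results of these data known. The alternatives changed the window, the position, the list, the TSS set, the overlap and the replicate. The dm3 lists were not used. Python 3.11.15, pandas 2.3.3 and numpy 2.4.6 were used, and the assignment to start sites was tested on simulated data.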

Additional observations from a re-analysis of the deposited data

How the results depend on the processing

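The count of 18 members with an IDR region (15.0% of protein-coding genes) was 16 with a 200 bp window (10.6%), 19 with 1000 bp (17.5%), 18 with midpoints (15.0%), 13 with the first 1934 IDR regions (8.97%), 16 with the nearest TSS alone (11.5%) and 17 with the most upstream TSS (12.9%). There was no IDR list for a single replicate. Leaving a replicate out therefore meant counting the strongest regions of the other replicate in place of the IDR list. That count was 16 without replicate 1 (17.5%) and 19 without replicate 3 (14.3%). These are the single-replicate counts given in the Results, and the IDR selection was not repeated. Set against the 18 members with an IDR region, the strongest regions of replicate 3 lacked eIF2A, eIF2beta, eIF3a and eIF4A and added eIF3c and eIF3m. Those of replicate 1 lacked eIF5B and eRF1 and added eIF2D, eIF4G2 and eIF4H1. Under all 8 settings, the single-replicate counts included, 9 of the 18 genes still had a region. They were eEF1alpha1, eEF1delta, eEF1gamma, eEF2, eEF5, eIF3h, eIF4B, eIF4G1 and eRF3. The count of 12 in both replicates fell to 7 with 50% reciprocal overlap (6.39% of protein-coding genes). The median rank was 1577.5 with 200 bp, 1135 with 1000 bp and 1538 over all regions, with median signals of 165, 200.97 and 168. The median position ranged from -82.5 to -57 with a replicate left out. With 100 bp on each side of the summit the DRE core was at 10 members, against 18.8% of the 2092 genes. With a replicate left out, the motif counts were over 19 members (replicate 1 alone) or 16 (replicate 3 alone). The DRE count ranged from 3 to 4, the DRE core from 4 to 6 and TATA from 1 to 3. GAGAG ranged from 1 to 2, CAGTG from 3 to 7 and the Motif 1 core from 1 to 2. In replicate 1, CAGTG was at 36.8% of members, against 20.2% of protein-coding genes with a strongest region, and TATA at 5.26%, against 18.9%. In replicate 3, CAGTG was at 18.8%, against 21.8%, and TATA at 18.8%, against 23.2%. For the motifs except CAGTG, the members' share lay on the same side of the genes' share as in the IDR list. With 1000 bp, the signalling list had 2 of 11 genes and the mitochondrial synthetase list 2 of 15, against 17.5% of protein-coding genes. At that window the signalling list was not below the share of all genes. The cause was not tested. No paired analysis was possible because there was 1 group. With 2 replicates, unknown depth and no input analysed here, the lists give no measure of error for a single region, and a gene without a region may lie under the depth of the lists.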
